A study of Mus musculus with 17 samples.

Results

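The 38 genes described here form the p53 response: genes listed as direct targets of p53 in the mouse, together with DNA damage response genes under its control. Members were chosen by name, from the annotated symbol of each probe. Of the 38, 34 had an annotated probe (82 probes) and 29 had at least 1 probe detected on 2 or more arrays. These 29 are among 12451 features tested, of which 10035 carried a gene symbol. Mdm4, Btg2, Aen, Perp and Eda2r had probes, but none passed that filter, and Trp53, Bax, Gdf15 and the listed name Tap63 matched no annotated probe and were not analysed here.

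Mice of wild-type genotype and C57bl/6 background carried palpable tumours of MCA205, a transplantable fibrosarcoma line, and received doxorubicin (DX; the labels spell it Doxorubucin) or phosphate-buffered saline (PBS) by injection into the tumour. Bulk tumour RNA was hybridised to single-colour Illumina BeadChips, in 6 groups. Tumours of day 2 had received DX (n = 2) or PBS (n = 3). Those of day 7 were DX responders, DX non-responders and PBS tumours (n = 3 each), and those of day 10 were DX responders (n = 3). The submitters divided the DX tumours of day 7 into responders and non-responders by tumour shrinkage, so those 2 groups were defined by outcome. No day 10 PBS tumours were analysed here. The labels do not say that the replicates came from separate mice, so the p-values below measure the spread between these samples only.

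p53 is a transcription factor that is held at a low level by the ubiquitin ligase Mdm2 and accumulates after DNA damage, when damage kinases release it from Mdm2. Doxorubicin damages DNA by trapping topoisomerase II on it and by intercalation. p53 then binds pairs of a short recognition sequence, each called a half-site, and raises genes that stop the cell cycle, repair DNA, trigger cell death and, through Mdm2 and Ppm1d, switch p53 off again.

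Between 13728 and 15568 probes were detected per array (detection p under 0.01), and replicates correlated across features with r between 0.965 and 0.991. All 8 fibroblast and matrix genes listed as markers, among them Col1a1 and Pdgfrb, were measured. Among the responders, replicate 3 on day 7 and replicate 3 on day 10 stood apart by their skeletal muscle RNA, described with Ddit4l at the end. Each gene is represented by its probe with the highest mean signal, on a normalised log2 scale. A difference is a difference of group means on that scale, given with its limma standard error, and a call is an adjusted p under 0.05 over all 12451 features. The 29 genes had a median SD within groups of 0.217, against 0.240 for all features. Across 8 comparisons and 232 tests, 1 call was made.

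Because p53 acts through half-sites, the start regions of the members were searched for the p53 half-site on both strands. The windows were the 300 bases around each annotated start (250 before it and 50 after it) in RefSeq's GRCm38.p6. Some genes have several starts, and a gene was counted if any of its windows held a half-site. Of 22 tested members with a window, 11 held a half-site (50%), as did 14 of 29 listed members with a window (48.3%) and 2582 of 27025 genes with a window (9.55%). Counted by window, the shares were 11 of 32 windows of tested members (34.4%) and 2745 of 32851 windows of all genes (8.36%). Cdkn1a, Polk and Sesn1 each have a second window, which held no match. The members were listed because they are p53 targets, so this share is a description and no independent evidence. The half-sites of the 11 tested members are sequence matches only, and binding of p53 to them was not measured here. They are given 5′ to 3′ on the gene's own strand, with the 4 central bases in capitals.
Pml (chr9:58249921-58249930, - strand): gggCTTGttt
Cdkn1a (chr17:29090906-29090915, + strand): ggaCTAGctt
Cdkn1a (chr17:29090928-29090937, + strand): gaaCATGtct
Ppm1d (chr11:85311122-85311131, + strand): gagCTTGctc
Polk (chr13:96519409-96519418, - strand): gaaCTAGcct
Gadd45a (chr6:67037438-67037447, - strand): gggCTAGccc
Ckap2 (chr8:22186013-22186022, - strand): agaCATGtcc
Mdm2 (chr10:117710935-117710944, - strand): gaaCTTGcct
Sesn1 (chr10:41887266-41887275, + strand): aagCTTGttt
Ccng1 (chr11:40755462-40755471, - strand): gggCAAGcct
Ddit4l (chr3:137623582-137623591, + strand): gggCTTGcct
Ei24 (chr9:36797335-36797344, - strand): gggCATGccc

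Cdkn1a was the only one of the 22 with 2 half-sites at most 13 bases apart (4.55%), an arrangement found in 20 of all 27025 genes (0.074%). Its sites begin 73 and 51 bases before the first of its 2 annotated starts. The Pml site begins 144 bases before the start. These 2 windows are shown in full, since Pml and Cdkn1a had the smallest p-values on day 2, with the half-sites in capitals.
Pml (chr9:58249737-58250036, minus strand): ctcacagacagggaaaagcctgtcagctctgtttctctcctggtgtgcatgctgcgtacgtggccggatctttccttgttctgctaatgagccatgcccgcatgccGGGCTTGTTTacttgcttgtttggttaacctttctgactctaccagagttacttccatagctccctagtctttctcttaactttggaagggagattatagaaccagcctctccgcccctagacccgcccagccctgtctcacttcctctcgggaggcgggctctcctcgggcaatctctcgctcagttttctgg
Cdkn1a (chr17:29090729-29091028, plus strand): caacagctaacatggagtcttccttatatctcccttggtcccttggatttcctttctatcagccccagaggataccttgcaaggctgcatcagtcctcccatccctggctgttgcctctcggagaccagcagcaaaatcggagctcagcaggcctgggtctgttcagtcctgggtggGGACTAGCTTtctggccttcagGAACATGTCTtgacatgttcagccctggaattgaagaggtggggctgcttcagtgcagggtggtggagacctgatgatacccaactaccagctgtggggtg

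The first question is what the p53 targets did 2 days after doxorubicin, compared with PBS. Pml was the 1 gene of 29 that was called, and it was higher by 1.60-fold. Over all features, 0.61% were called in either direction. Of the other 28, Cdkn1a was the 1 with an unadjusted p under 0.05, so 2 of 29 genes reached that level, both higher in DX, against 6.91% of all features. In 8 genes every DX array lay above every PBS array (Pml, Cdkn1a, Pmaip1, Trp53inp1, Ephx1, Fas, Cd82, Apaf1) and in 3 every DX array lay below (Zmat3, Ppm1d, Polk), against 28.1% of all features in either direction. The median difference of the 29 genes was 0.07, with 19 positive, beside -0.02 over all features.

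Pml encodes the scaffold of PML nuclear bodies, is both a p53 target and a helper of p53 activation, and is also an interferon-stimulated gene. Its log2 signal was 10.58 and 10.21 in day 2 DX tumours, against 9.75, 9.68 and 9.72 in day 2 PBS tumours. Both DX tumours lay above all PBS tumours, and the PBS tumours lay close together. The difference was 0.68 ± 0.13 (SE), a 1.60-fold rise with an adjusted p of 0.0186 by limma. Both other kept probes of Pml gave the same sign, with differences of 0.60 and 0.82. The probe with 0.60 was near background, detected on 3 of the 17 arrays. Within BeadChip 3, which held 1 DX and 2 PBS arrays, the difference was 0.51, and with BeadChip as a fixed block it was 0.62 (limma, adjusted p = 0.0474). The call was lost in 4 of the 5 fits that left out 1 of these arrays: without DX replicate 1 the difference was 0.49 (limma, adjusted p = 0.849), and without each PBS array in turn the limma adjusted p was 0.0545, 0.0767 and 0.0768.

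Interferon-stimulated genes moved in the same tumours. Of 18 measured type I interferon genes, 12 were called higher in day 2 DX tumours and the median difference of the 18 was 1.41. Among them Ifit2 and Irf7, an antiviral effector and the factor that amplifies interferon production, rose by 1.45 and 1.63. The summed normalised signal of the 18 genes was 33272 to 46172 in day 2 DX tumours and 14893 to 17081 in day 2 PBS tumours, with Ifit1 and Xaf1 detected on no array of either group. The 3 measured haemoglobin genes fell, with a summed signal of 145 to 268 in day 2 DX tumours and 1197 to 2688 in day 2 PBS tumours. In bulk tumours, fewer cells of a type and less RNA per cell cannot be told apart. The part of interferon genes and of blood in the Pml result was not tested.

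Cdkn1a encodes p21, the cyclin-dependent kinase inhibitor through which p53 arrests the cell cycle. It had a log2 signal of 10.12 and 9.27 in day 2 DX tumours, against 8.69, 8.93 and 8.60 in day 2 PBS tumours. Both DX tumours were higher than every PBS tumour, but they differed from each other by more than the PBS tumours did. The difference of 0.96 ± 0.25 (SE), 1.94-fold with a 95% interval of 0.43 to 1.48 on the log2 scale, was not called (limma, adjusted p = 0.132). Both other kept probes were higher too, by 0.52 and 1.16. It was called when only these 2 groups entered the fit (limma, adjusted p = 0.0423). The difference was 1.38 without DX replicate 2 and 0.53 without DX replicate 1, each with 1 DX array left. DX replicate 1 was on BeadChip 1, which held DX arrays and no PBS array of any day. Within BeadChip 3, which held 1 DX and 2 PBS arrays, the difference was 0.51.

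**Figure D1:**
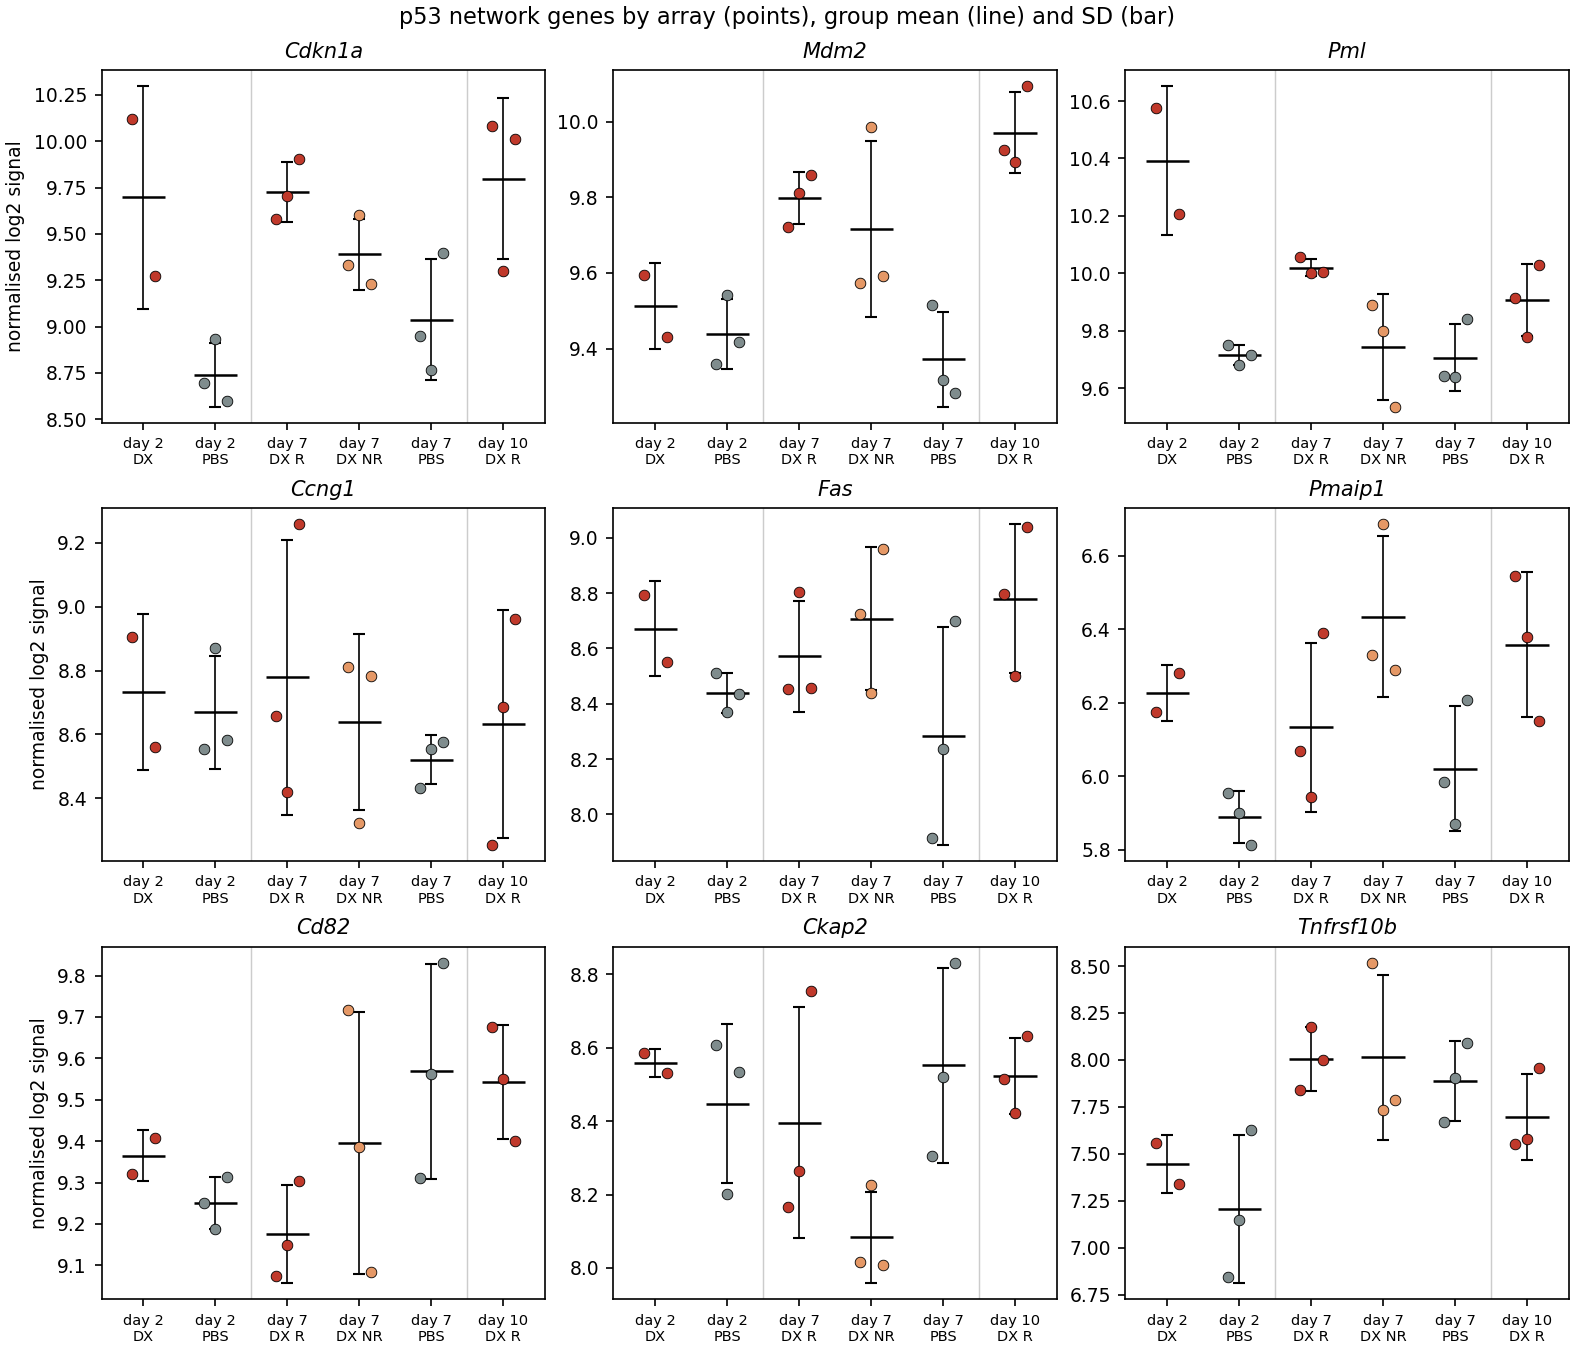
Normalised log2 signal of p53 network genes on each array (points) with group means (lines) and SDs (bars), groups from day 2 DX to day 10 DX responders. For Pml the 2 day 2 DX points, 10.58 and 10.21, lie above the day 2 PBS points, and for Mdm2 the responder points of day 7 and day 10 lie above the day 7 PBS points.

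None of the feedback genes was called by limma on day 2. Mdm2, the ligase that degrades p53, had 9.59 and 9.43 in day 2 DX tumours, against 9.36, 9.54 and 9.42 in day 2 PBS tumours, and the groups overlapped (difference 0.07, 95% interval -0.21 to 0.36). Ccng1, cyclin G1, which recruits a phosphatase to Mdm2, had 8.91 and 8.56 in day 2 DX tumours, against 8.55, 8.87 and 8.58 in day 2 PBS tumours (difference 0.06, interval -0.42 to 0.55). Ppm1d, the phosphatase that ends damage signalling, differed by -0.19. Its DX arrays lay below its PBS arrays, while those of Ccng1 overlapped.

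The death genes were not called either. Bbc3, the BH3-only protein Puma, had 7.68 and 7.56 in day 2 DX tumours, against 7.45, 7.58 and 7.57 in day 2 PBS tumours (difference 0.09, interval -0.37 to 0.55). Pmaip1, the BH3-only protein Noxa, differed by 0.34, and Trp53inp1, a stress-induced nuclear protein that promotes p53 activity, by 0.41. The death receptors Fas and Tnfrsf10b differed by 0.23 and 0.24, and Apaf1, the core of the apoptosome, by 0.07. Ei24, an endoplasmic reticulum protein, differed by -0.03, and Bcl2l1, whose main product blocks apoptosis, was near background.

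The arrest and stress genes spread on both sides of 0. The kinase Plk2 had 8.07 and 7.93 in day 2 DX tumours, against 7.14, 7.96 and 7.53 in day 2 PBS tumours (difference 0.46, limma, adjusted p = 0.915), and 1 PBS tumour lay between the DX tumours. Plk3, a related kinase, differed by 0.07, Gadd45a, a growth arrest and repair protein, by 0.24, Sesn1, a stress sensor that restrains mTORC1, by -0.08, and Phlda3, an inhibitor of Akt, by 0.06. Zmat3, an RNA-binding protein, differed by -0.29 and Dusp5, a phosphatase of ERK, by -0.27.

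The repair genes gave differences between -0.17 and 0.25. They were Polk, a translesion polymerase (-0.17), Xpc and Ddb2, which recognise damaged bases (-0.14 and 0.25), Rrm2b, a ribonucleotide reductase subunit (-0.05), and Ercc5, a nucleotide excision endonuclease (-0.05). Among the other targets, the detoxifying enzyme Ephx1 differed by 0.31, the tetraspanin Cd82 by 0.11 and the spindle-associated protein Ckap2 by 0.11. None of these was called by limma, and none had an unadjusted p under 0.05.

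**Figure D2:**
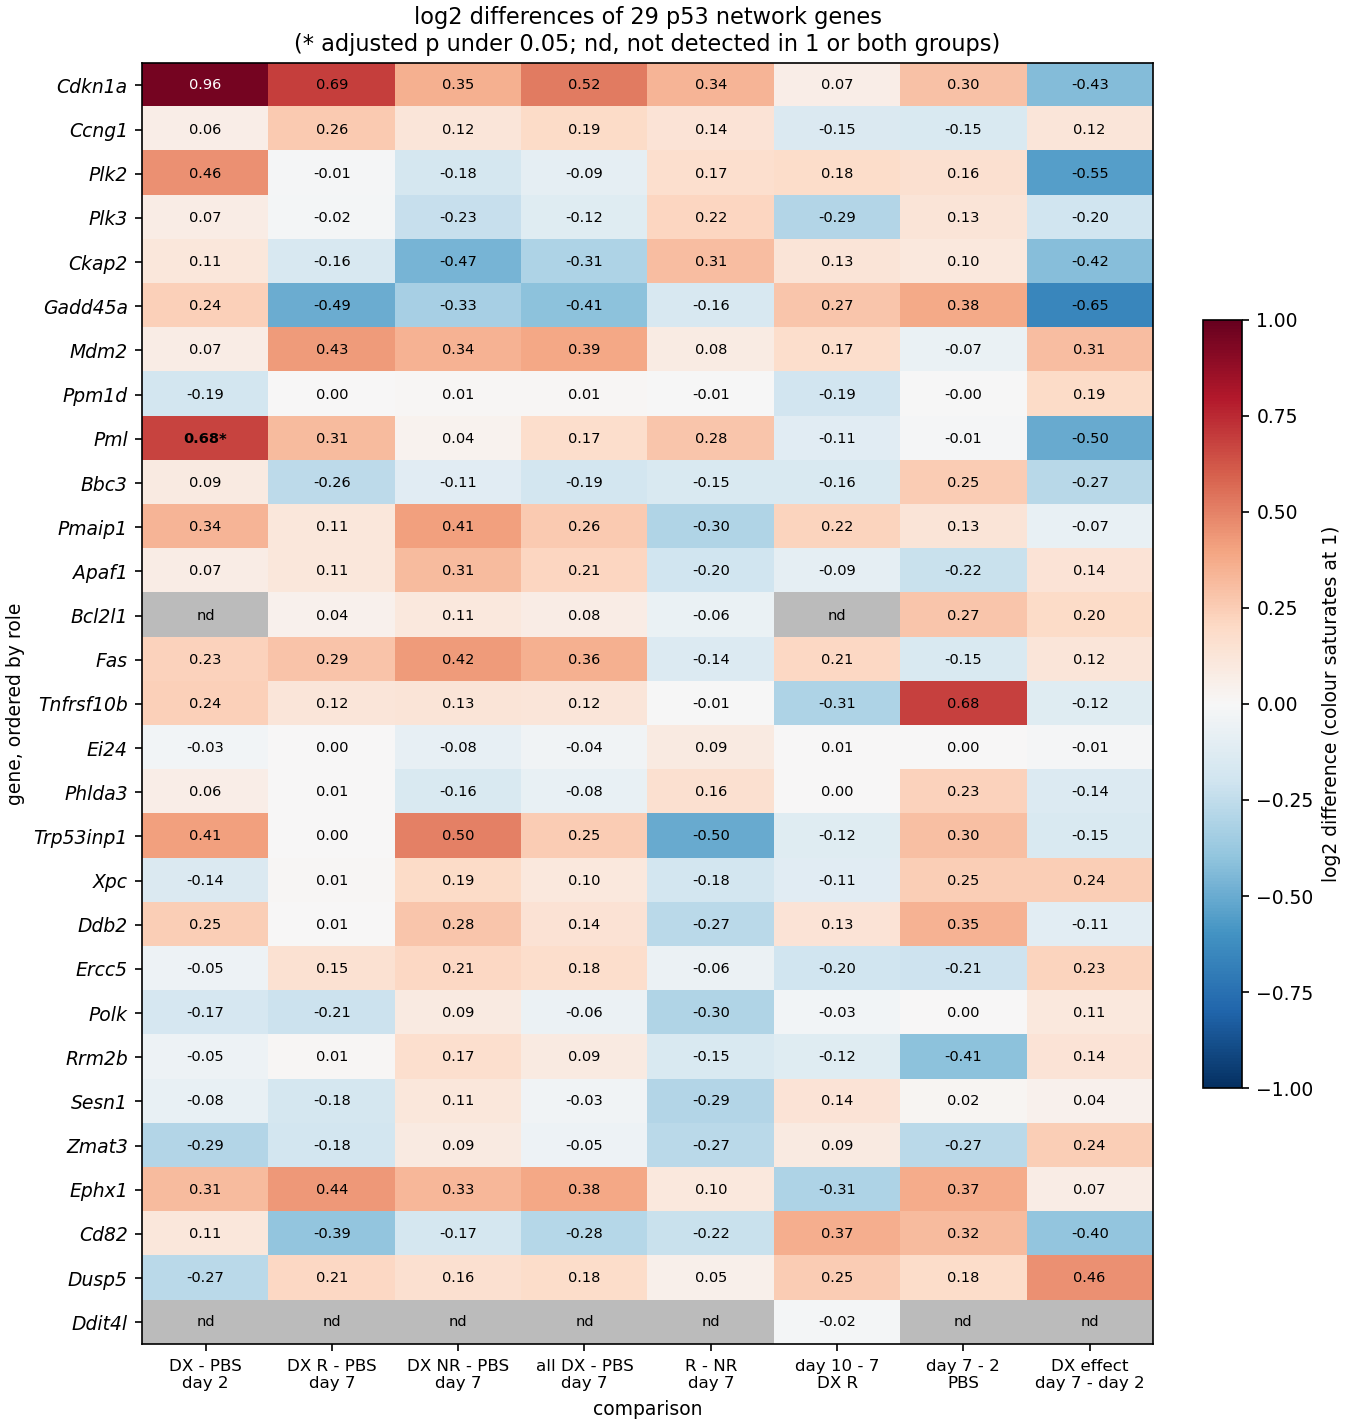
Log2 differences of the 29 genes (rows, by role) in the 8 comparisons (columns), with colour from blue (negative) to red (positive), an asterisk for an adjusted p under 0.05 and nd where a gene was detected on no array of 1 or both groups. The single asterisk is Pml on day 2, with a difference of 0.68.

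On day 7 the 3 comparisons with PBS share the same 3 PBS arrays, so their values are given side by side. Responder replicates 2 and 3 and non-responder replicate 2 were on BeadChip 1, which held no PBS array. None of the 29 genes was called by limma. In responders against PBS, 4 genes were higher and 2 lower at an unadjusted p under 0.05, against 13.8% of all features in either direction, and 0.53% of all features were called. In non-responders against PBS, 4 were higher and 1 lower, against 10.8% and with 0.129% called. In all day 7 DX tumours against PBS, 4 were higher and 2 lower, against 14.2% and with 0.297% called.

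Groups that did not overlap were also counted. In responders 3 genes lay wholly above PBS and 1 below, against 19.2% of all features. In non-responders the counts were 4 and 1, against 14.7%. Over all 6 DX tumours, Mdm2 lay wholly above PBS and no gene lay below, against 6.32%. The median differences of the 29 genes were 0.01 in responders, 0.11 in non-responders and 0.10 in all DX tumours, beside 0.01, 0.02 and 0.02 over all features.

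Mdm2 had 9.72, 9.81 and 9.86 in responders and 9.57, 9.99 and 9.59 in non-responders, against 9.52, 9.32 and 9.28 in day 7 PBS tumours. On this brighter probe all 6 DX tumours lay above all 3 PBS tumours. The difference was 0.43 ± 0.12 in responders, 0.34 ± 0.12 in non-responders and 0.39 ± 0.10 over both (SE), with limma adjusted p of 0.120, 0.313 and 0.103. With BeadChip as a fixed block the pooled difference was 0.25 (limma, adjusted p = 0.446). Within BeadChip 3 the responder difference was 0.21 (1 array in each group), and within BeadChip 2 the non-responder difference was 0.28 (2 arrays in each group). The other kept probe gave 0.29 in responders and 0.45 in non-responders, but its groups overlapped. On that probe responder replicate 1 had 9.23, against 9.05, 9.44 and 9.26 in PBS tumours.

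Cdkn1a had 9.58, 9.70 and 9.90 in responders and 9.34, 9.60 and 9.23 in non-responders, against 8.95, 8.77 and 9.40 in day 7 PBS tumours. Responders lay above all PBS tumours and non-responders overlapped them. The difference was 0.69 ± 0.22 in responders (limma, adjusted p = 0.182) and 0.35 ± 0.22 in non-responders (limma, adjusted p = 0.600). Within BeadChip 3 the responder difference was 0.63 (1 array in each group). Within BeadChip 2 the non-responder difference was 0.20 (2 arrays in each group). The other kept probes gave smaller differences of 0.20 and 0.20 in responders. In non-responders they gave -0.18 and 0.10, so the first, detected on all 17 arrays, had the opposite sign.

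**Figure D3:**
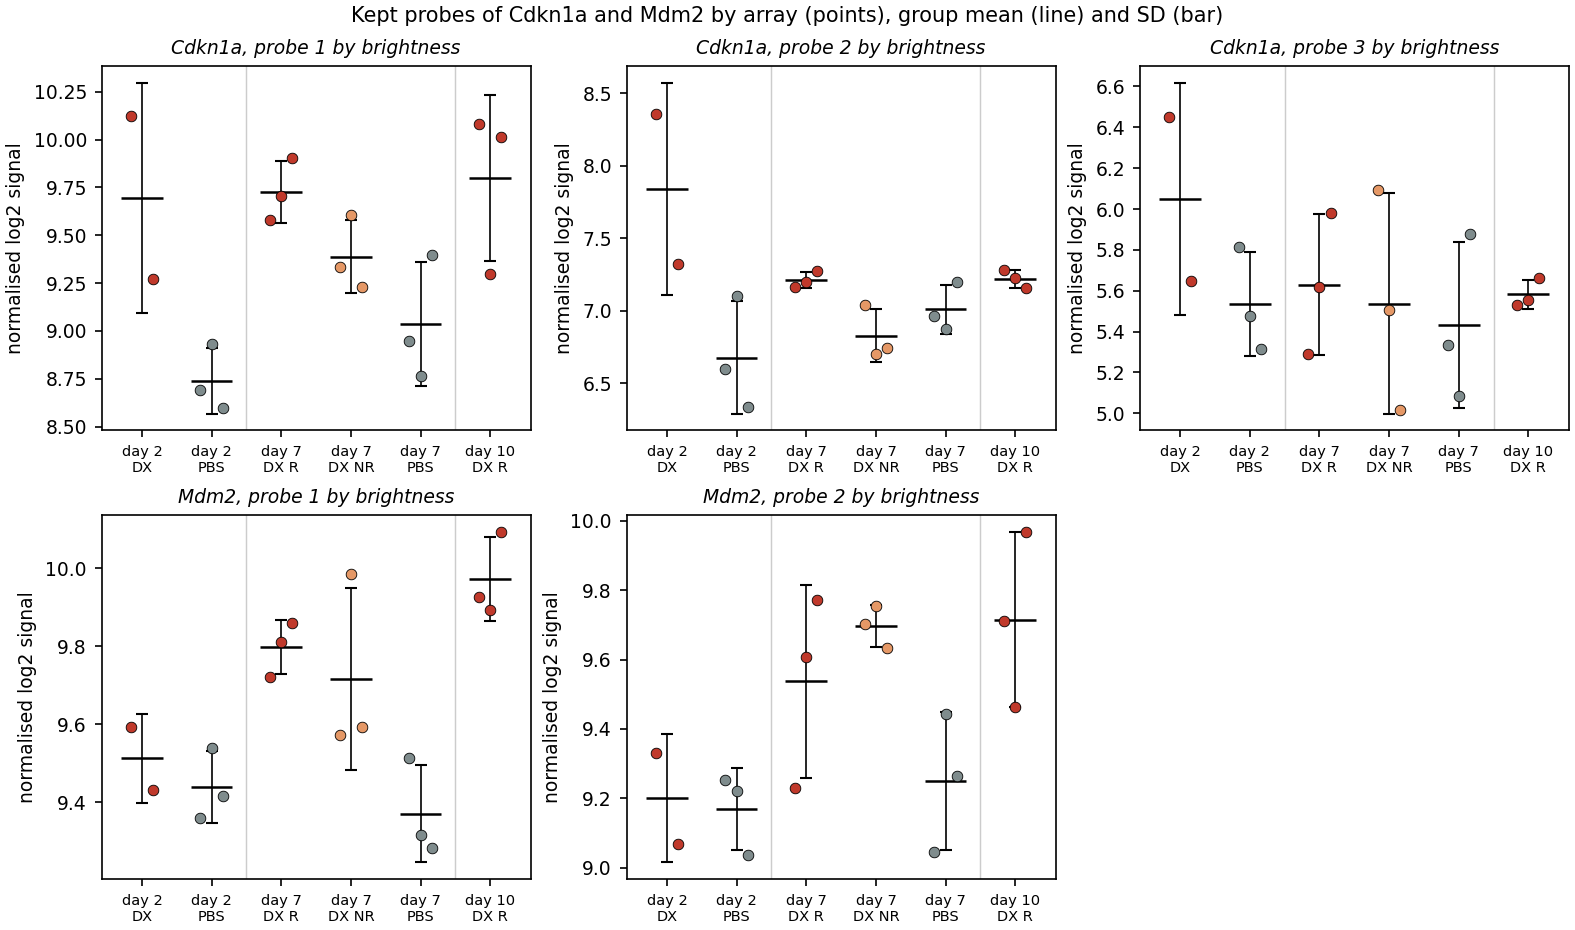
Normalised log2 signal of each kept probe of Cdkn1a (3 probes) and Mdm2 (2 probes) on each array (points), with group means (lines) and SDs (bars). All 3 Cdkn1a probes have a higher mean in day 2 DX than in day 2 PBS tumours. On day 7 their differences vary in size, and 1 probe has a lower mean in non-responders than in PBS. Both Mdm2 probes have higher means in the DX groups of day 7 than in PBS.

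Pml had 10.06, 10.00 and 10.00 in responders and 9.89, 9.80 and 9.54 in non-responders, against 9.64, 9.64 and 9.84 in day 7 PBS tumours. Only the responders lay apart from PBS, with a difference of 0.31 ± 0.12 (limma, adjusted p = 0.250). Within BeadChip 3 the responder difference was 0.41 (1 array in each group). The other kept probes of Pml gave -0.05 and 0.08 in responders. The first, detected on all 17 arrays, did not share the sign, and the second was near background. The summed interferon signal was 20702 to 24596 in responders, 18736 to 22765 in non-responders and 16743 to 22155 in PBS tumours, and its part was not tested.

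Fas, a death receptor that p53 raises, had 8.45, 8.80 and 8.46 in responders and 8.73, 8.44 and 8.96 in non-responders, against 7.92, 8.24 and 8.70 in day 7 PBS tumours. The groups overlapped, and the pooled difference was 0.36 ± 0.16 (limma, adjusted p = 0.335). Apaf1 had 9.51, 9.59 and 9.68 in non-responders, against 9.45, 9.21 and 9.17 in PBS tumours, which did not overlap (difference 0.31 ± 0.12; limma, adjusted p = 0.351). Its other probes gave -0.17 and 0.12. Ckap2, which peaks in dividing cells, had 8.02, 8.23 and 8.01 in non-responders, against 8.30, 8.52 and 8.83 in PBS tumours, and the difference was -0.47 ± 0.17 (limma, adjusted p = 0.324).

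Neither Bbc3 nor Ccng1 was called. Bbc3 had 7.30, 7.53 and 7.75 in responders and 7.55, 7.35 and 8.11 in non-responders, against 7.95, 7.85 and 7.55 in PBS tumours. Ccng1 had 8.66, 8.42 and 9.26 in responders and 8.81, 8.32 and 8.78 in non-responders, against 8.43, 8.55 and 8.58 in PBS tumours. All of these groups overlapped. Of the remaining genes, Cd82 and Gadd45a were lower in responders by -0.39 and -0.49, Ephx1 was higher by 0.44, and Pmaip1 was higher in non-responders by 0.41, each with an unadjusted p under 0.05 and none called. The other DX group had the same sign each time. Non-responders had -0.17 for Cd82, -0.33 for Gadd45a and 0.33 for Ephx1, and responders had 0.11 for Pmaip1. The repair genes and the remaining arrest and death genes ran from -0.21 (Polk) to 0.21 (Dusp5) in responders and from -0.23 (Plk3) to 0.50 (Trp53inp1) in non-responders.

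**Figure D4:**
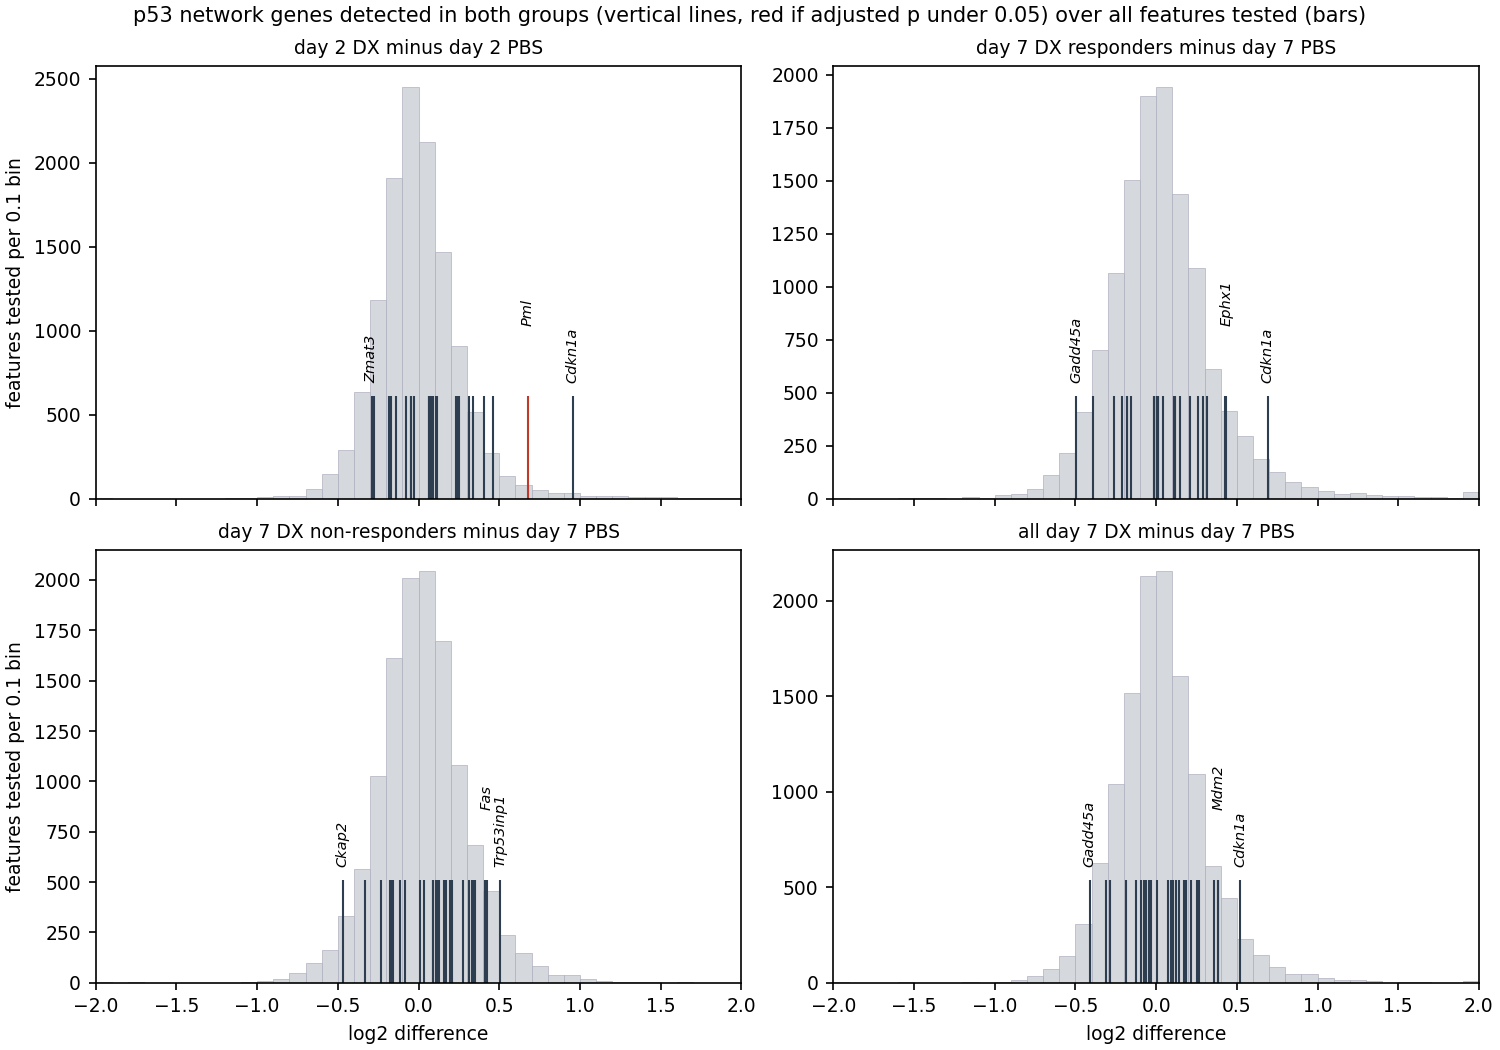
Log2 differences of the p53 network genes detected in both groups (vertical lines) over the distribution of all 12451 features (bars, features per 0.1 bin) for the 4 comparisons of DX with PBS. Pml (red, 0.68) and Cdkn1a (0.96) are the genes farthest to the right on day 2, and no line is red in the 3 day 7 panels.

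The marker lists were uneven between these groups. The summed signal of 7 measured T and NK cell genes was 3878 to 4099 in responders, 3057 to 4085 in non-responders and 2419 to 2893 in PBS tumours, with Cd4, Cd8a, Gzmb, Klrb1c and Ncr1 detected on no array of these groups. The 12 measured macrophage genes summed to 5620 to 7845 in responders, 5675 to 6146 in non-responders and 7607 to 8768 in PBS tumours. The 3 measured haemoglobin genes summed to 2856 to 4883 in responders, 1498 to 7215 in non-responders and 1192 to 1710 in PBS tumours, with Alas2 detected on no array. The 3 measured neutrophil genes summed to 133 to 329 in responders, 70.0 to 649 in non-responders and 39.9 to 71.6 in PBS tumours, with Camp, Cxcr2, Ngp and Retnlg detected on no array. The 6 measured keratinocyte genes summed to 635 to 10993 in responders, 576 to 5980 in non-responders and 490 to 691 in PBS tumours. Of that list, Krt15 and Perp were detected on no array of these groups. The part of these cells in the day 7 differences was not tested.

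Comparing responders with non-responders on day 7 asks whether p53 targets differ between tumours that shrank and those that did not. No gene was called by limma, as was the case for all features (0%). At an unadjusted p under 0.05, 1 gene (Pml) was higher and 0 lower, against 5.71% of all features. Pml lay wholly above and Apaf1 wholly below, against 10.9% of all features, and the median difference was -0.06 beside -0.00 over all features. Apaf1 differed by -0.20, but both of its other kept probes gave the opposite sign, 0.10 and 0.08.

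Pml differed by 0.28 ± 0.12 (limma, adjusted p = 0.807), from the per-array values given above. Both of its other kept probes gave the opposite sign, -0.23 and -0.04, the first from the probe near background. Trp53inp1 had 6.78, 7.36 and 7.21 in responders, against 7.36, 7.32 and 8.18 in non-responders, with a difference of -0.50 ± 0.24 (limma, adjusted p = 0.857). Polk had 8.21, 8.11 and 8.19 in responders, against 8.81, 8.12 and 8.48 in non-responders, with a difference of -0.30 ± 0.16 (limma, adjusted p = 0.857). Both groups overlapped for these 2 genes.

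Between day 10 and day 7 responders, no gene was called by limma, with 0.00803% of all features called. At an unadjusted p under 0.05, 1 gene was higher and 0 lower, against 3.92% of all features. Cd82 and Mdm2 lay wholly above and Bcl2l1 wholly below, against 7.24%, and the median difference was -0.02 beside -0.01 over all features. Cd82, a tetraspanin that restrains metastasis, had 9.68, 9.55 and 9.40 in day 10 responders, against 9.07, 9.15 and 9.30 in day 7 responders (difference 0.37 ± 0.15; limma, adjusted p = 1.00).

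For Mdm2, Cdkn1a and Pml no difference from day 7 responders was called. Mdm2 had 9.93, 9.89 and 10.09 in day 10 responders (difference 0.17 ± 0.12), and Cdkn1a had 10.08, 9.30 and 10.01 (difference 0.07). Pml had 9.91, 9.78 and 10.03 (difference -0.11). No PBS tumours of day 10 were analysed, so these levels have no control of their own day.

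Plk3 had 7.58, 7.40 and 7.10 in day 10 responders, against 7.37, 7.66 and 7.93 in day 7 responders, and the groups overlapped (difference -0.29; limma, adjusted p = 1.00). Bcl2l1 was detected in 0 of 3 day 10 responders and in 3 of 3 day 7 responders. Its signals were 5.11, 5.03 and 5.27 in day 10 responders, which are not above background, against 5.43, 5.47 and 5.43 in day 7 responders. With the day 10 signals raised to the lowest detected level, the day 7 mean was 1.15-fold higher. That value carries no sampling error, and the difference was not called by limma. Bcl2l1 was detected on 10 of the 17 arrays.

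The controls were compared with each other to see how far the genes moved without drug. Between day 7 and day 2 PBS tumours no gene was called by limma, with 0.634% of all features called. At an unadjusted p under 0.05, 2 genes were higher and 1 lower, against 14.5% of all features. Tnfrsf10b and Ephx1 lay wholly above and Rrm2b and Apaf1 wholly below, against 22.6%, and the median difference was 0.13 beside -0.02 over all features.

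Tnfrsf10b, the mouse TRAIL receptor, had 7.67, 7.91 and 8.09 in day 7 PBS tumours, against 6.84, 7.15 and 7.63 in day 2 PBS tumours (difference 0.68 ± 0.22; limma, adjusted p = 0.163). Its other probes gave -0.10 and 0.09. Rrm2b, which supplies nucleotides for repair, had 7.42, 7.35 and 7.15 in day 7 PBS tumours, against 7.84, 7.78 and 7.53 in day 2 PBS tumours (difference -0.41 ± 0.17; limma, adjusted p = 0.273). Cd82 had 9.31, 9.56 and 9.83 in day 7 PBS tumours, against 9.25, 9.19 and 9.31 in day 2 PBS tumours (difference 0.32; limma, adjusted p = 0.343). The first 2 of these pairs did not overlap and the third did.

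Whether the DX effect differed between day 7 and day 2 was tested as the difference of the 2 differences, which shares arrays with the comparisons above. No gene was called by limma, with 0.225% of all features called. At an unadjusted p under 0.05, 0 genes were higher and 1 lower, against 8.04% of all features, and the median was 0.04 beside 0.03. The lower one was Pml, at -0.50 ± 0.17 (limma, adjusted p = 0.385), and both of its other probes, 1 of them near background, had the same sign. Gadd45a was at -0.65 ± 0.33 (limma, adjusted p = 0.642): it had 9.35 and 9.38 in day 2 DX tumours, against 8.67, 9.26 and 9.43 in day 2 PBS tumours. On day 7 it had 8.49, 9.20 and 9.33 in responders and 9.44, 8.96 and 9.12 in non-responders, against 9.44, 9.78 and 9.28 in PBS tumours. Cd82 was at -0.40 ± 0.21 (limma, adjusted p = 0.671). It had 9.32 and 9.41 in day 2 DX tumours and 9.72, 9.39 and 9.08 in day 7 non-responders, and its other values are given above.

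Ddit4l, an inhibitor of mTORC1 that is abundant in skeletal muscle, was detected on only 2 of the 17 arrays. They were the third responder replicate of day 7 (7.03) and that of day 10 (6.68), and the other 15 arrays lay between 4.31 and 5.07. The same 2 arrays had the highest signals of the muscle genes Acta1 (13.39 and 13.10) and Ckm (9.63 and 9.25). The 11 measured muscle genes summed to 725 to 60486 in day 7 responders, 139 to 320 in non-responders and 154 to 263 in day 7 PBS tumours, and to 715 to 49231 in day 10 responders. Whether muscle tissue carried Ddit4l into these 2 samples was not tested.

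**Figure D5:**
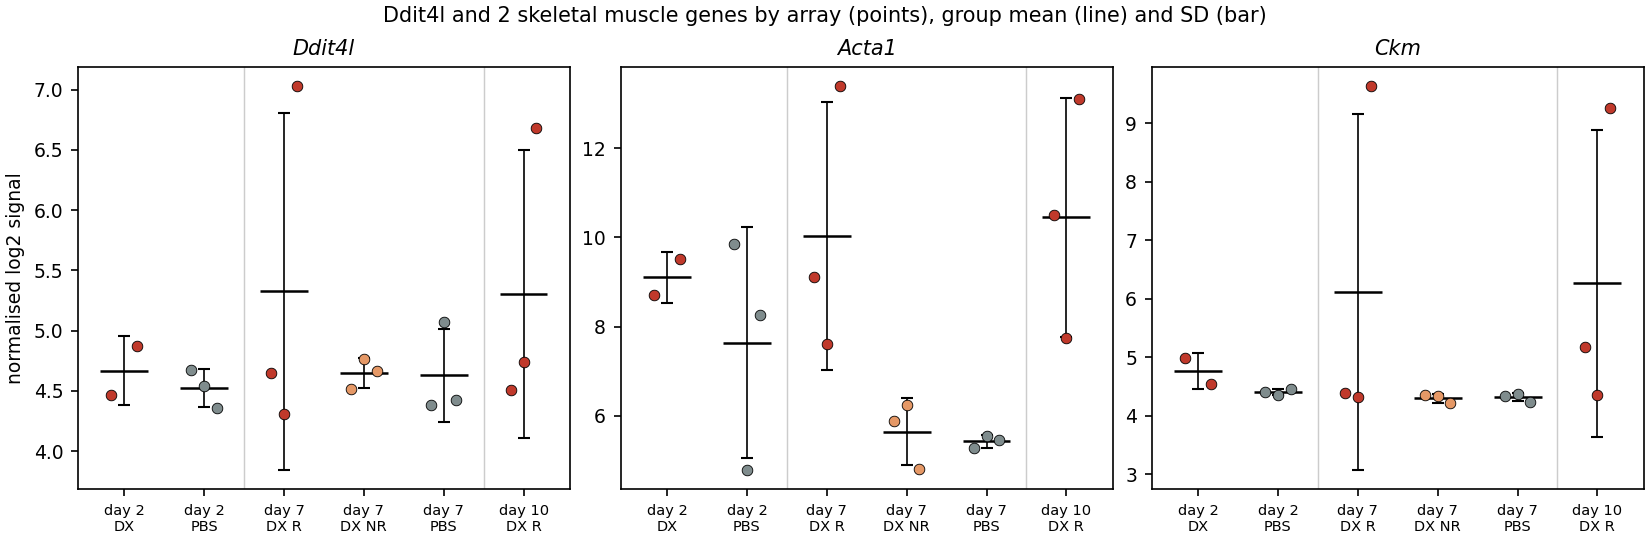
Normalised log2 signal of Ddit4l and of the muscle genes Acta1 and Ckm on each array (points), with group means (lines) and SDs (bars). Replicates 3 of the day 7 and day 10 responders are the highest points in all 3 panels, with 7.03 and 6.68 for Ddit4l.

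Genes of the wider pathway were taken from lists of p53 regulators, other p53 targets, damage sensing and checkpoint, DNA repair, cell cycle and apoptosis genes. On day 2, 1 of 19 measured p53 regulators was called, and it was Daxx, which was higher (difference 0.99, limma, adjusted p = 0.00282). Daxx is a chromatin chaperone that resides in PML nuclear bodies and is also interferon-stimulated. None of the 18 other p53 targets, 19 damage sensing, 47 DNA repair, 26 cell cycle and 18 apoptosis genes was called by limma on day 2. At an unadjusted p under 0.05, the counts in that order were 0, 1, 4, 1 and 0, all lower in DX, where 6.91% of all features reached that level in either direction. The median difference of the 47 DNA repair genes was -0.09, beside -0.02 over all features. In day 7 responders against PBS, none of these 6 lists held a called gene.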

How the data were processed

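Bulk tumour RNA of 17 samples in 6 groups was measured on Illumina BeadChips, and groups and replicate numbers came from the sample titles. The BeadChip of each array was taken from the number before the array letter in the sample descriptions. The authors deposited, per the file headers, a linear signal intensity and a detection p-value per probe and array before normalization. The labels do not describe the calculation of that p-value. The submitters' processing notes name GenomeStudio 2011.1. A second deposited table holds processed intensity values on a linear scale: its columns share the same sorted values within 1%, and its method is not stated.

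From the deposited intensities, log2 values were computed with neqc (offset 16) of limma 3.58.1 in R 4.3.3, which shrinks differences of dim probes towards 0. Of 45281 probes, 17674 were detected (p under 0.01) on at least 2 arrays and kept. Where a gene had several kept probes, the brightest on average stood for it. Symbols came from the platform annotation, which gave 18 probes several symbols. One limma model over 6 group means (11 residual degrees of freedom, eBayes with trend) gave 8 comparisons, with Benjamini-Hochberg adjustment over 12451 features. Marker sums are on the linear scale with the offset removed. For arrays, precision is limited by their number.

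Members and lists were chosen with earlier results of these data known. Every measured member is named, per-array values are given for Cdkn1a, Mdm2, Ccng1, Bbc3, called members and the 3 smallest p-values of each comparison, and up to 4 called genes of other lists could be named. The fit was tested on simulated data. Alternatives were another background correction and normalization, the authors' processed values, other detection filters, the mean of all probes, BeadChip or replicate number as a block, the compared groups alone, and each replicate left out.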

Additional observations from a re-analysis of the deposited data

How the results depend on the processing

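Pml was the only gene called on day 2, and in the other 7 comparisons 0 of 29 genes were called under every alternative run. Few features of any kind were called there: at most 138 of all features in any of the 7 under an alternative. The highest was 1 between responders and non-responders, and 1 between day 10 and day 7 responders. The number called on day 2 was 2 (Cdkn1a and Pml) with only the compared groups in the fit. It was 0 without each PBS array in turn. The fits without a DX replicate left 1 DX array in that group, and they count among the alternatives below. Pml was called in 10 of 14 tested alternatives (limma, adjusted p 0.0147 to 0.849) and Cdkn1a in 2 of 14 (limma, adjusted p 0.0270 to 1.00). The number of features called on day 2 ranged from 10 to 169, beside 76. For 29 pairs of a gene and a comparison, mostly those with the smallest p-values, 504 of 512 values under the alternatives kept their sign. The exceptions among these pairs on day 2 were Mdm2, at -0.066 with BeadChip as a fixed block, -0.0077 to 0.15 over the fits without 1 array and -0.047 within BeadChip 3; Ccng1, at -0.11 to 0.24 over the fits without 1 array and -0.17 within BeadChip 3; and Bbc3, at -0.0097 within BeadChip 3. The other exceptions among them were Polk, at 0.030 within BeadChip 1 between responders and non-responders, and Plk3, at 0.029 within BeadChip 3 between day 10 and day 7 responders. Over all 29 genes, 20 to 25 kept their sign in each of 8 comparisons within a BeadChip, 20 of them on day 2, where Tnfrsf10b was at -0.050 beside 0.24. The cause of these changes was not tested. The deviations of samples with the same replicate number correlated at -0.22 to 0.54, the highest being replicate 3 of day 10 and day 7 responders, both with muscle RNA. Not every pair was over 0.1, so the numbers were not taken to pair the samples. With the replicate number as a block, 1 gene was called on day 2 (Pml, 0.68; limma, adjusted p = 0.0273) and 0 in each other comparison. Groups of 2 or 3 arrays limit what could be detected, and probes near background, such as those of Bcl2l1 and Ddit4l, give bounds only.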
